A study of Mus musculus with 6 samples.

Results

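Complement is a set of plasma and tissue proteins, and this report describes 9 of its genes in the mammary gland of mice on a high-fat or a control diet. The members are a named set of complement components and inhibitors, and their probes were found through the RefSeq accession that the array gives each probe. They are C1qa, C1qb, C1ra, C2 and C4b of the classical pathway, Cfb and C3 of the alternative pathway, and the inhibitors Cfi and Serping1. These 9 genes had 12 probes, out of 23460 genes or unnamed transcripts tested through 28689 probes. All 12 probes lay well above background on all 6 arrays, so each member entered the test.

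RNA came from the mammary glands of 6 female mice, all Trp53 knockout (Trp53-/-), so both diets share the loss of the p53 tumour suppressor and no mouse with intact Trp53 was analysed here. Mice were assigned at random to the diets at 3 weeks of age, 3 to high-fat and 3 to control food, and glands were collected after 5 weeks of feeding, at 8 weeks of age. Each mouse had 1 single-colour Agilent array, hybridised with Cy3-labelled RNA. Part of the labels speak of whole glands and part of mammary epithelial cells, and they do not settle which gave the RNA. A level below is log2 of the processed signal over its array's 75th percentile, and a difference is high-fat minus control on that log2 scale, with its standard error and n = 3 mice per diet. Levels of different probes on an array are not set against each other, because probes differ in brightness for equal RNA. The 75th percentile lay between 1326.2 and 1973.3 intensity units, no spot was saturated, and 27203 to 29412 of 39429 probes were well above background on each array. The number of arrays limits the precision.

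As background, the classical pathway starts when C1q, a bundle of A, B and C chains, binds antibody or a cell surface and activates the proteases C1r and C1s bound to it. C1s cuts C4 and C2, whose fragments form the enzyme that cleaves C3, the protein on which all complement pathways converge. The alternative pathway forms a second C3-cleaving enzyme from C3b and factor B, which factor D cuts and properdin stabilises. C1 inhibitor, the product of Serping1, blocks C1r and C1s, and factor I cuts C3b and C4b. In tissues the C1q chains come mainly from macrophages, and the C1r and C1s proteases and C1 inhibitor from fibroblasts and other resident cells. Several complement genes, among them those of factor B, C2 and C1 inhibitor, are known to respond to interferon.

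None of the 9 members passed the test between diets by limma with Benjamini-Hochberg adjustment over all genes, a rule that 0.0171% of genes tested met. The means of 8 members were lower on the high-fat diet and 1 was higher, with a median difference of -0.15 against -0.0083 for all genes tested. Of the 8, C4b, C1qb and C3 lay near 0, at -0.0009, -0.016 and -0.030, and their signs turned under other settings. At an unadjusted p under 0.05, 4 members were lower (C1ra, C2, Serping1 and Cfb) and 0 higher, where 7.46% of all genes were lower and 5.88% higher at that level. For C1ra all high-fat arrays lay below all control arrays, as for 8.75% of all genes, and for 0 members did they lie above, as for 8.47% of all genes. The count of members with the diets apart, 1 of 9 below and 0 above, is near these background shares. In tissue RNA, fewer cells of a type and less RNA per cell cannot be told apart.

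**Figure D1:**
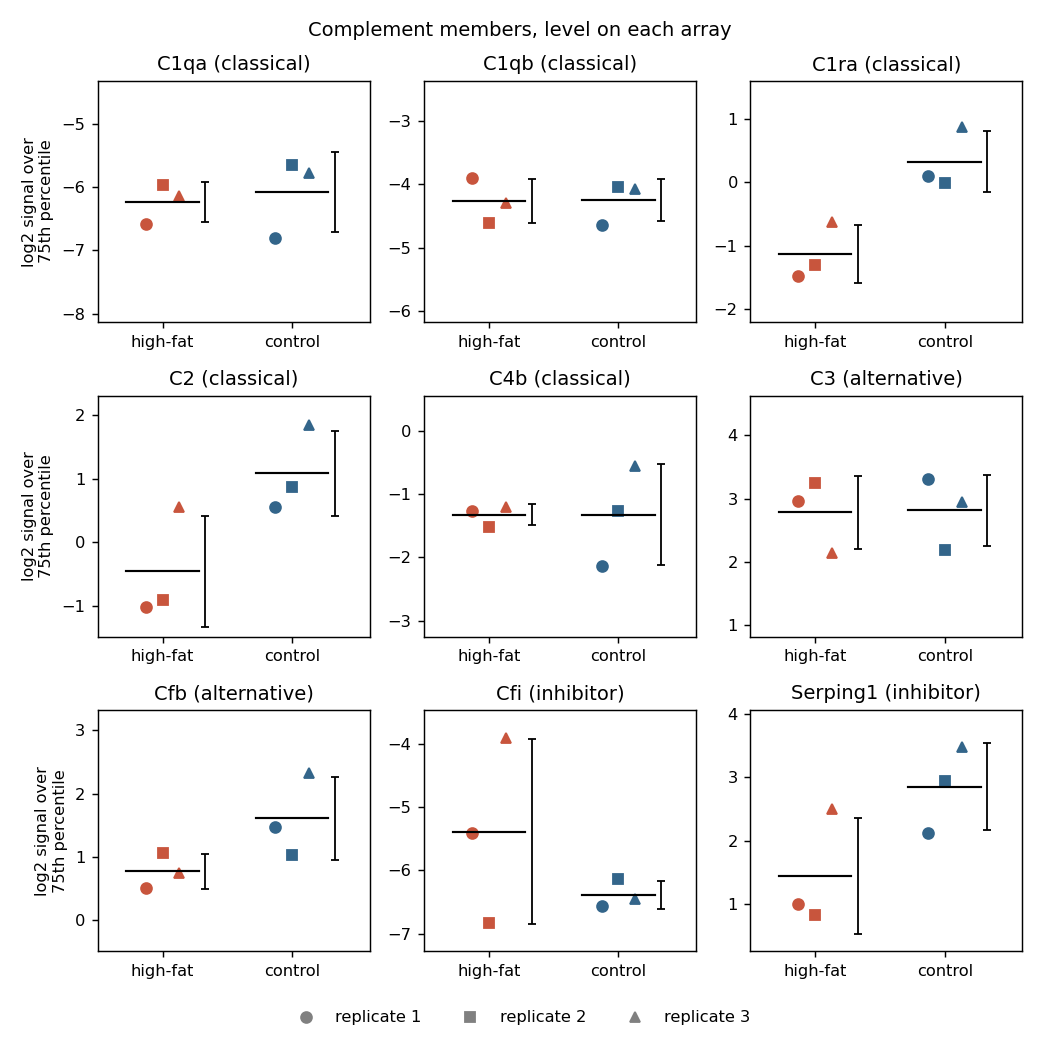
Level of each member on each array (y axis, log2 signal over the array's 75th percentile; every panel spans the same range), with 3 high-fat arrays in red and 3 control arrays in blue. Marker shapes give the replicate number, horizontal lines the means and bars the SD. The diets separate for C1ra, touch for C2, and overlap for the other 7 genes.

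The recognition chains C1qa and C1qb showed no separation of the diets. C1qb, the B chain, stood at -3.91, -4.60 and -4.29 on high-fat arrays 1 to 3 and at -4.64, -4.05 and -4.07 on control arrays 1 to 3. The 2 sets of values interleaved, and the difference was -0.016 ± 0.24 (SE; 95% interval -0.61 to 0.58; adjusted p = 0.978). C1qa, the A chain, stood at -6.58, -5.97 and -6.14 on the high-fat arrays and at -6.81, -5.65 and -5.77 on the control arrays, a difference of -0.15 ± 0.34 (95% interval -0.98 to 0.67; adjusted p = 0.841). Control replicate 1 had the lowest value of both chains, and the C1qa probe was dim, within 1 log2 unit of the dimmest detected probe on 2 arrays. The third chain, C1qc, is not among the 9 members. Its probe was detected above background on 2 of the 3 control arrays, and it differed by 0.29 ± 0.66 (adjusted p = 0.849). In these 3 genes, which neighbour each other on chromosome 4, the intervals include differences of over 0.5 in either direction. The direction of C1qa and of C1qb turned with the slide as a block, to 0.75 and 0.19. Only the slide of high-fat replicates 2 and 3 and control replicate 1 held both diets, so block values rest on it alone.

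Among the members C1ra, the gene of the protease C1r that C1q activates, had the smallest p and the one complete separation of the diets. It stood at -1.48, -1.30 and -0.62 on high-fat arrays 1 to 3 and at 0.11, -0.0035 and 0.88 on the control arrays. Every high-fat value lay below every control value, and the difference was -1.46 ± 0.32, a 2.75-fold lower signal (95% interval -2.24 to -0.68; limma adjusted p = 0.230). The second C1ra probe gave -1.66, -1.38 and -0.90 against -0.09, -0.44 and 0.37, with the diets again apart, and a difference of -1.26. C1ra ranked 352 of 23460 genes by p. With the slide as a block the difference was -1.07.

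The other genes of this protease family, which were not members, separated the diets likewise. C1s1, which encodes C1s, stood at -0.59, -0.04 and 0.85 on the high-fat arrays and at 1.70, 1.32 and 1.99 on the control arrays, a difference of -1.60 ± 0.38 (adjusted p = 0.248). C1s2, its paralogue, stood at -0.60, -0.09 and 0.83 against 1.70, 1.79 and 2.47, a difference of -1.93 ± 0.40 (adjusted p = 0.217). The second C1s2 probe was dim, at 11.9 to 53.9 intensity units, and differed by -1.30. It was detected on 1 of 3 high-fat arrays and all 3 control arrays. C1rb, the paralogue of C1ra, stood at -4.84, -4.58 and -4.07 against -3.71, -3.51 and -2.98, a difference of -1.10 ± 0.27 (adjusted p = 0.255). The diets did not overlap in any of these 3 genes, and high-fat replicate 3 had the highest high-fat value in each of them and in C1ra. C1rl, a more distant relative, also had all high-fat arrays lower but by less, with a difference of -0.51 ± 0.19 (adjusted p = 0.358) that was -0.21 with the slide as a block. Under normexp background correction, scaled as before, the C1rb difference was -0.33. The paralogues are close in sequence, and probe sequences were not used here, so signal from C1ra in the C1rb probe, or between C1s1 and C1s2, cannot be told apart from each gene's own.

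The 5 protease genes stand in a row on chromosome 6 in the order C1rl, C1ra, C1s1, C1rb and C1s2, with 1 pseudogene between C1s1 and C1rb. Their start regions are printed for the 4 genes with the larger differences, to show which letters the copies share. They come from RefSeq on build GRCm38.p6, run from 250 bases before to 50 after the annotated start, and read 5′ to 3′ on the gene's strand. Capitals mark the letters TTCNNNGAA, the GAS element that STAT factors bind, searched on both strands together with AANNGAAA, the core that interferon regulatory factors bind, and the NF-kB consensus; overlapping matches were allowed. C1ra lies at chr6:124512371-124512670 on the + strand, C1rb at chr6:124570180-124570479 on the + strand, C1s1 at chr6:124542310-124542609 on the - strand and C1s2 at chr6:124636036-124636335 on the - strand.
C1ra: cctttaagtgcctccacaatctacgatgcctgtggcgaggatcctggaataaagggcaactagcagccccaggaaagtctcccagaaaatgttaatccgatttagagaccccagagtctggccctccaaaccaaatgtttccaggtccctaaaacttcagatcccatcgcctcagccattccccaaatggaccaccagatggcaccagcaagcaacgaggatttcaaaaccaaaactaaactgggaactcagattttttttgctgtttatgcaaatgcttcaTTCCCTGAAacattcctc
C1rb: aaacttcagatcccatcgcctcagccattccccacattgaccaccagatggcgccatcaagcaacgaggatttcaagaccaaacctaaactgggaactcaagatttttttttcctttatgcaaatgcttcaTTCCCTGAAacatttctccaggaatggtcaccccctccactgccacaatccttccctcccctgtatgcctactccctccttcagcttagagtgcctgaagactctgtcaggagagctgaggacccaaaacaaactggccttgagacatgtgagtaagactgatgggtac
C1s1: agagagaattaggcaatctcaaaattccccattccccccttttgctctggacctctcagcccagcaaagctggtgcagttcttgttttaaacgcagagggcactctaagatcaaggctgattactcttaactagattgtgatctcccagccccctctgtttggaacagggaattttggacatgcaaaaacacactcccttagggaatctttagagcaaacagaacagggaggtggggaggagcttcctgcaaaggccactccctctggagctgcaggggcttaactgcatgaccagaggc
C1s2: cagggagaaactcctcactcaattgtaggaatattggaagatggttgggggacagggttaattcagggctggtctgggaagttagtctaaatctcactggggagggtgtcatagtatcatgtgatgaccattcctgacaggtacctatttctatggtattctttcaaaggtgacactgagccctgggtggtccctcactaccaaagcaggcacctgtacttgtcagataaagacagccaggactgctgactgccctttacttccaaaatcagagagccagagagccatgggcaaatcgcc
The C1ra and C1rb windows share a block of 150 aligned positions, 139 of them identical (92.7%), and the same 9 GAS letters lie inside it. Because the annotated starts differ, that match begins at position 32 from the start of C1ra and at -119 from that of C1rb, where 0 is the first transcribed base. The best local alignment of C1s1 with C1s2 covered 11 positions, so the start regions of that pair do not share such a block, and neither window held any of the 3 motifs. The C1rb window also held the interferon core at -141, and the C1ra window did not. Among all 32851 RefSeq start windows, 8.3% held the GAS letters, 23.9% the interferon core and 8.46% the NF-kB consensus. Of 36 complement windows, from 32 genes, 8, 12 and 3 held them. Of the other members with an entry, the C3 window held the interferon core at -119 and the C1qb window held none. A match is a run of letters and no evidence of binding.

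C2 and C4b encode the substrates of C1s. C2 stood at -1.02, -0.91 and 0.56 on the high-fat arrays and at 0.55, 0.86 and 1.84 on the control arrays. The highest high-fat value passed the lowest control value by 0.0037, so the diets touched, and the difference was -1.54 ± 0.52, a 2.92-fold lower signal (95% interval -2.80 to -0.29; adjusted p = 0.334). High-fat replicate 3 stood more than 1 log2 unit above the other high-fat arrays, and without it the difference was -2.05. High-fat replicates 2 and 3 shared a slide with control replicate 1, and on it the difference was -1.46 for replicate 2 and 0.0037 for replicate 3. C4b stood at -1.26, -1.52 and -1.20 against -2.14, -1.27 and -0.56, with the control arrays spread on both sides of the high-fat ones. Its difference was -0.0009 ± 0.39 (95% interval -0.94 to 0.93; adjusted p = 1.00), and it was 0.78 with the slide as a block. C4b has a near-identical copy in the mouse, C4a, for which no probe was found by accession, and signal of that copy on the C4b probe cannot be told apart.

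C3, the central component, did not separate by diet. Its probe, printed in 10 spots, stood at 2.97, 3.24 and 2.14 on the high-fat arrays and at 3.30, 2.19 and 2.94 on the control arrays. The lowest values were on high-fat replicate 3 and control replicate 2, and the difference was -0.030 ± 0.38 (95% interval -0.96 to 0.90; adjusted p = 0.974). The second C3 probe gave 2.16, 2.47 and 1.42 against 2.51, 1.33 and 2.03, the same order of arrays within each diet, with a difference of 0.059, so the sign of the C3 difference depends on the probe. With the slide as a block, which rests on the shared slide alone, the C3 difference was -0.61. On that slide it was -0.064 for high-fat replicate 2 and -1.16 for replicate 3. Lcn2, an acute phase gene chosen here after its values were seen, had its lowest values on the same arrays as C3. It stood at 6.76, 7.60 and 5.58 against 7.14, 5.34 and 6.38. Other genes of that list were mixed, and Saa3 and Saa1 had their lowest values on high-fat replicate 1. Among all genes outside the complement lists, the 3 with profiles nearest to C3 were Bicdl2, Bspry and Il6ra, with mean absolute differences of centred levels of 0.082, 0.10 and 0.11 over 6 arrays.

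Cfb, the gene of factor B, stood at 0.50, 1.06 and 0.75 on the high-fat arrays and at 1.47, 1.04 and 2.32 on the control arrays. Control replicate 2 lay between the high-fat values, and control replicate 3 was the highest of all 6. The difference was -0.84 ± 0.34, a 1.78-fold lower signal (95% interval -1.67 to -0.0050; adjusted p = 0.374), and without control replicate 3 it was -0.48. On the shared slide it was -0.41 for high-fat replicate 2 and -0.72 for replicate 3. Cfb and C2 are neighbours on chromosome 17, separated in the annotation by the microRNA gene Mir6972. Their centred levels differed by 0.59 on average over the 6 arrays.

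The other alternative pathway genes went different ways. Cfd, which encodes factor D, also known as adipsin and a product of fat cells, stood at -3.44, -3.22 and -3.03 on the high-fat arrays and at -5.60, -4.72 and -4.70 on the control arrays. All high-fat values lay above all control values, by at least 1.27, and the difference was 1.78 ± 0.27, a 3.43-fold higher signal (95% interval 1.12 to 2.44; adjusted p = 0.132). Cfd ranked 92 by p, ahead of every other complement gene tested, and did not pass the adjusted threshold. The size of the difference ranged from 0.93 with normexp and quantile normalization to 2.57 on the shared slide. Among the fat cell markers, Adipoq, the gene of adiponectin, was detected on 2 of the 3 control arrays and all 3 high-fat arrays and differed by 1.04 ± 0.22, while Plin1 and Lep differed by 0.18 and 0.16. Over the 10 fat cell markers the median difference was 0.17, with 7 higher and 3 lower, and Pparg differed by -1.09 ± 0.25. The mean level of that list ran from -4.60 to -4.09 on the high-fat arrays and from -4.82 to -4.28 on the control arrays. The part of fat cell content in the Cfd difference was not tested. Cfp, which encodes properdin, differed by -0.27 ± 0.26 (adjusted p = 0.645).

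**Figure D2:**
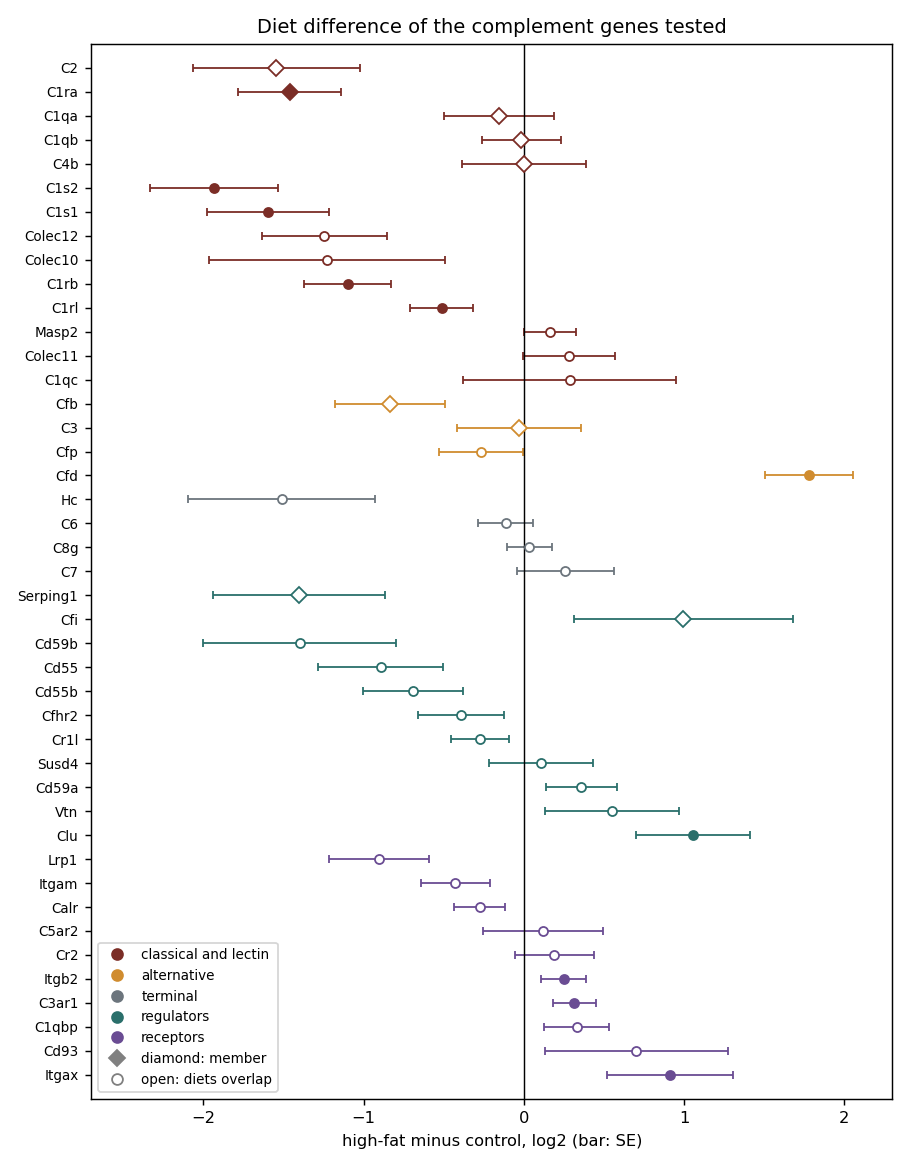
Diet difference (x axis, high-fat minus control, log2) of the complement genes tested and reported here, grouped by role and sorted within each role. Points are limma estimates and bars their standard errors, diamonds are the 9 members, and filled symbols mark genes whose diets do not overlap. C1ra, C1s1, C1s2, C1rb and C1rl lie to the left and Cfd and Clu to the right.

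Of the inhibitors, Serping1 had the lower mean in the high-fat mice and Cfi the higher mean, and neither passed the test. Serping1 stood at 1.01, 0.84 and 2.50 on the high-fat arrays and at 2.12, 2.95 and 3.48 on the control arrays. High-fat replicate 3 lay above control replicate 1, so the diets overlapped, and the difference was -1.40 ± 0.54, a 2.64-fold lower signal (95% interval -2.70 to -0.11; adjusted p = 0.359). The second Serping1 probe gave 0.42, 0.29 and 1.84 against 1.54, 1.99 and 2.55, a difference of -1.18 with the same overlap. Without high-fat replicate 3 the difference was -1.93, and with the slide as a block it was -0.45. Cfi, the gene of factor I, stood at -5.41, -6.83 and -3.92 on the high-fat arrays and at -6.56, -6.14 and -6.45 on the control arrays. The high-fat SD was 1.46 and the control SD 0.22, and on high-fat replicate 2 the Cfi probe was the dimmest one called detected. The difference of 1.00 ± 0.68 (95% interval -0.66 to 2.65; adjusted p = 0.521) was 0.26 without high-fat replicate 3 and 1.72 without replicate 2.

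Further regulators and receptors, none of them members, showed no common direction. Of 10 other regulators tested, 6 were lower and 4 higher, with a median of -0.33 and 0 past the test. Clu, which encodes clusterin, an inhibitor of the membrane attack complex, stood at 7.10, 6.83 and 5.94 against 5.89, 5.71 and 5.09, with every high-fat array above every control array by at least 0.05 and a difference of 1.06 ± 0.35 (adjusted p = 0.334). With the slide as a block the Clu difference was 0.49, and on the shared slide it was 0.94 for high-fat replicate 2 and 0.048 for replicate 3. Cd55, which encodes the decay-accelerating factor, differed by -0.89 ± 0.39. Cd59b was detected above background on 1 of 3 high-fat arrays and all 3 control arrays. Of 10 receptors, 7 were higher and 3 lower with a median of 0.22, and 0 passed the test. C3ar1, Itgax and Itgb2 had the high-fat arrays above the control arrays, as for 8.47% of all genes. The gaps between the diets were small, at 0.062, 0.020 and 0.0008. The C3ar1 and Itgax probes were dim, at 18.9 to 41 and 13.3 to 53.9 intensity units. Their differences were 0.32 ± 0.13, 0.91 ± 0.39 and 0.25 ± 0.14 (limma adjusted p = 0.375, 0.379 and 0.450). Itgam, whose product pairs with that of Itgb2 in a complement receptor, differed by -0.43 ± 0.21 with the diets overlapping. Its other probes gave -0.019 and 0.10, so the sign of the Itgam difference depends on the probe. Of 4 terminal genes, Hc, the gene of C5, differed by -1.51 ± 0.58 (limma adjusted p = 0.361), and C6, C7 and C8g by -0.11, 0.26 and 0.03. The second C8g probe gave -0.46, so the sign of the C8g difference also depends on the probe. C6 was detected on 2 of the 3 high-fat arrays. Of the collectin genes, Colec12 differed by -1.24 ± 0.39 (limma adjusted p = 0.318) and Colec10 by -1.23 ± 0.74 (adjusted p = 0.472). Colec11 differed by 0.28 ± 0.29 and Masp2, a protease gene of the lectin pathway, by 0.16 ± 0.16. With the slide as a block the Colec12 difference was -0.63.

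Over all 61 complement genes listed, 59 had a probe and 44 passed the filter on dim probes, so 15 were not tested. Of the 44, 26 were lower and 18 higher with a median of -0.13, and 0 passed limma's adjusted threshold. At an unadjusted p under 0.05, 11 were lower and 2 higher, the 2 being Cfd and Clu. Of all genes tested, 7.46% were lower and 5.88% higher at that level. The 11 included the C1r and C1s genes, where shared signal between paralogues cannot be told apart. The diets did not overlap for 5 genes with the high-fat arrays below and for 5 with them above, against 8.75% and 8.47% of all genes. All 5 of the lower ones, C1ra, C1rb, C1rl, C1s1 and C1s2, were the C1r and C1s genes.

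The classical and alternative pathways each held members with a larger and with a near-zero difference between the diet means. Of the 5 classical members, C1ra and C2 differed by -1.46 and -1.54, while C1qa, C1qb and C4b lay between -0.15 and -0.0009. Of the 2 alternative members, Cfb differed by -0.84 and C3 by -0.030. With the slide as a block, which only the shared slide informs, they differed by -0.56 and -0.61. Under that block C1ra and C2 differed by -1.07 and -0.73. C1qa, C1qb and C4b differed by 0.75, 0.19 and 0.78, so the classical members had both signs there. The mean of the classical members' levels, each centred on its own mean over the 6 arrays, was -0.48, -0.50 and 0.03 on high-fat arrays 1 to 3 and -0.22, 0.34 and 0.83 on the control arrays. For the alternative pair it was -0.26, 0.16 and -0.55 against 0.39, -0.38 and 0.64. In both pathways the values of the diets overlapped. The differences of these means, taken without a slide block, were -0.63 and -0.43. Without the C1q chains the classical mean was -0.78, -0.77 and 0.05 against -0.02, 0.33 and 1.19, a difference of -1.001. These are summaries of chosen genes and carry no test.

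**Figure D3:**
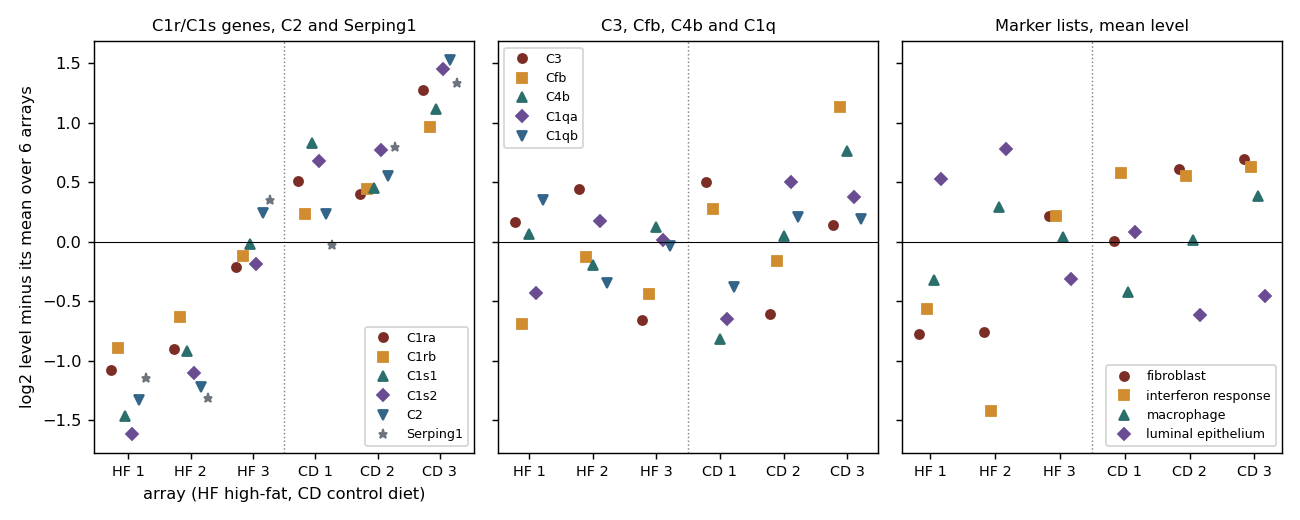
Level on each array minus its mean over the 6 arrays (y axis, log2) for 3 sets: the C1r and C1s genes with C2 and Serping1, the other components, and the mean level of 4 marker lists. HF marks the high-fat and CD the control arrays. In the left panel high-fat replicate 3 lies above the other high-fat arrays for all 6 genes, and above control replicate 1 for C2 and Serping1, and in the middle panel the genes have no common order.

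Likeness between members across the 6 arrays cut across the pathways. The pair with the most alike centred levels was C2 and Serping1, with a mean absolute difference of 0.18, followed by C2 and C1ra at 0.28. C4b was most like C1qb and C1qa, at 0.30 and 0.33, and C1ra and Serping1 differed by 0.34. The least alike pair was C2 and Cfi, at 1.27. In C1ra, C2 and Serping1 alike, high-fat replicates 1 and 2 had the lowest values and control replicate 3 the highest, while the order of the arrays between them differed. The genes outside the complement lists nearest to C2 were Hpse, Slit3 and Ankrd34a, at 0.14, 0.14 and 0.16. Those nearest to Serping1 were Pla1a, Cpq and Hpse, at 0.08, 0.12 and 0.12, so Hpse, the gene of heparanase, was among the nearest of both. Those nearest to C1ra were Flvcr2, Tcp10b and Cdc42ep2, at 0.08, 0.09 and 0.09. Those nearest to Cfb were Adamtsl1, Il4ra and Gprasp2, at 0.13, 0.14 and 0.15. The measure rests on 6 arrays and 23460 genes, so close profiles also arise with no link between the genes.

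Marker lists of other cell types were read on the same arrays. The 12 fibroblast markers had a mean level of 3.14, 3.15 and 4.13 on high-fat arrays 1 to 3 and of 3.92, 4.52 and 4.61 on the control arrays. Of them 11 were lower with a median of -0.87, among them Lum by -1.80 ± 0.33, Pdgfra by -1.66 ± 0.37 and Dcn by -1.62 ± 0.33, and 0 passed the adjusted threshold. Like C2, Serping1, C1ra, C1rb, C1s1 and C1s2, this list was highest on control replicate 3 and had its highest high-fat value on replicate 3. The interferon response list, given next, shared these features. The 15 interferon response genes tested had a mean level of 1.43, 0.57 and 2.21 against 2.57, 2.55 and 2.63. All 15 had lower means, with a median of -1.001, and 0 passed the adjusted threshold. In 7 of them the high-fat arrays lay below the control arrays, against 8.75% of all genes, among them Cxcl10 by -2.40 ± 0.61 (adjusted p = 0.264) and Ifit3 by -2.19 ± 0.49 (adjusted p = 0.230). Of the 8 skeletal muscle markers tested, 6 were lower with a median of -0.996 and 5 had the diets apart below, and of the 6 neutrophil markers tested all 6 were lower with a median of -0.79 and 1 had the diets apart. Their mean levels ran from -4.14 to -3.77 on the high-fat and from -3.32 to -2.92 on the control arrays for muscle, and from -1.05 to -0.15 and from -0.34 to 0.55 for neutrophils. The medians of the 9 endothelial, 6 B cell and 3 T cell markers tested were 0.13, -0.0013 and -0.065. In all these lists 0 passed the adjusted threshold. The part of fibroblast, muscle and neutrophil content and of the interferon response in the values of C1ra, C2, Cfb and Serping1 was not tested.

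The 11 macrophage markers tested, of 12 with a probe, had a mean level of -3.08, -2.46 and -2.72 against -3.18, -2.74 and -2.37, with the diets overlapping, 6 higher and 5 lower and a median of 0.25. Adgre1, which encodes F4/80, differed by 0.25 ± 0.22 and Csf1r by -0.12 ± 0.25, and both were well above background on all 6 arrays. C1qa and C1qb, whose usual source is the macrophage, were likewise without a separation of the diets. Like this list they were lowest on control replicate 1, C1qb narrowly, at -4.64 against -4.60 on high-fat replicate 2. The endothelial, B cell, T cell and fat cell lists were also lowest on that array, so this feature is not particular to macrophage markers. Markers of the labelled mammary epithelium were present, since all 12 luminal and all 10 basal markers passed the filter, and Krt8 and Krt18 were well above background on all 6 arrays. Luminal markers were higher in 11 of 12 cases with a median of 0.70, and basal ones in 10 of 10 with a median of 1.08, and 0 passed the adjusted threshold. In 1 luminal and 9 basal markers the high-fat arrays lay above the control arrays, against 8.47% of all genes. Of the 5 hepatocyte markers tested, 4 were lower and 1 higher with a median of -0.41. Alb was detected on 0 of 3 high-fat arrays and on all 3 control arrays, and so passed the filter through the control arrays, while Apoa2, Apoh, Serpina1a and Hp differed by -0.082, 0.32, -0.41 and -1.74 with the diets overlapping. Of the 11 acute phase genes tested, 7 were lower and 4 higher with a median of -0.068, and 0 passed the adjusted threshold. Saa3 and Saa1 differed by -3.39 ± 0.87 (adjusted p = 0.264) and -2.80 ± 0.68 (adjusted p = 0.251) with the high-fat arrays below, and Tnf by 0.74 ± 0.22 (adjusted p = 0.314) with the high-fat arrays above. Saa2 differed by -0.078 ± 1.01. The part of these groups in the complement values was not tested.

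**Figure D4:**
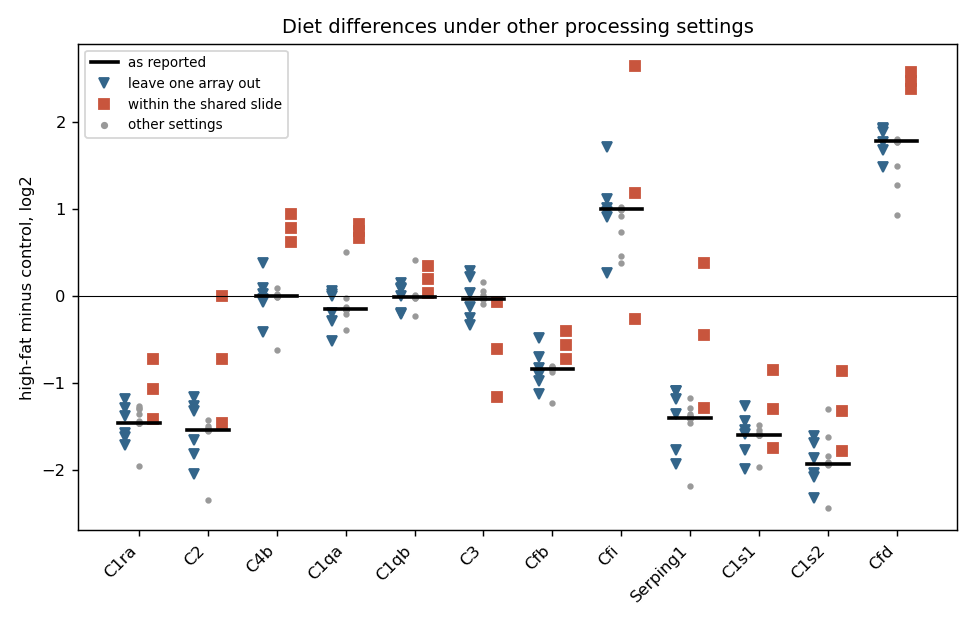
Diet difference (y axis, high-fat minus control, log2) of the 9 members and of C1s1, C1s2 and Cfd as reported (black bars) and under other settings, with triangles for leaving out 1 array, squares for estimates within the shared slide and other symbols for the rest. C1ra, Cfb, C1s1, C1s2 and Cfd kept their sign in every setting run, and the other 7 genes crossed 0 in at least 1.

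The members that kept their sign under every setting run were C1ra, between -1.95 and -0.72, and Cfb, between -1.23 and -0.41. Array weights, which down-weight arrays that stand apart from their group, brought C1ra, C2 and Serping1 past the adjusted threshold, each at adjusted p = 0.0261. The same setting called 5409 genes against 4 as reported, and without it the lowest adjusted p over the other settings was 0.0889 for C1ra, 0.0998 for C2 and 0.119 for Serping1.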

How the data were processed

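Gene expression in 6 mouse mammary gland RNA samples, 3 per diet by the labels, was measured on 1 Agilent array each. Scans were quantified by Agilent Feature Extraction (version 11.0.1.1, per the file headers and the submitters' processing notes). The deposited files give a processed signal, a background-subtracted intensity on a linear scale. The deposited table of values, used as an alternative, also holds the authors' intensity on a linear scale, scaled near each array's 75th percentile, as its comparison with the scanner values shows; no label states its scale.

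After removal of control spots and flagged outliers, spots were averaged per probe. Of 39429 probes, 111 lacked a usable spot on some array and were dropped. Of the rest, 27346 matched 1 gene symbol through their RefSeq accession. Levels are log2 of the processed signal over the array's 75th percentile. A probe needed a well-above-background flag on 3 or more of the 6 arrays, and the brightest such probe stood for its gene.

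The diet contrast was fitted by lmFit and eBayes of limma (version 3.58.1, R 4.3.3) without covariates, two-sided, with Benjamini-Hochberg adjustment over 23460 genes and a threshold of 0.05. With 3 mice per diet the precision rests on limma's pooled spread. The members and lists were chosen with earlier results of these data known. Named genes were the 9 members, the listed complement genes and the 3 genes nearest to each member. From each marker list the first 3 and the 4 with the smallest p were named, with Lcn2 added after its values were seen. Alternatives covered scaling, normexp (offset 50, on median signals, as the files give no mean spot signal), the filter, the probe rule, variance, array weights, slide, replicate number and leaving out each array. The method was tested on simulated data. A listed complement gene is counted in the totals but not reported here.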

Additional observations from a re-analysis of the deposited data

How the results depend on the processing

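The 4 genes past the test in the whole table became 0 with quantile normalization, normexp with the 75th percentile, no filter, the slide as a fixed block or the replicate number as a block. They became 2 with arrays centred on their median, 7 with normexp and quantile normalization, 7 with probes well above background on all 6 arrays, 5409 with array weights, 18 at adjusted p under 0.1 and 3129 at unadjusted p under 0.05. Leaving out 1 array gave 0 to 37, with 37 without high-fat replicate 3. The cause of these moves was not tested. The median of the 9 members, -0.15 as reported, was -0.62 with array weights and lay between -0.52 (without control replicate 1) and -0.0031 (without control replicate 3) on leaving out 1 array. Normexp with the 75th percentile moved the median of all genes to 0.21.

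Signs turned for 7 of the 9 members. C3 was 0.015 by the mean of its probes, 0.16 with array weights and 0.059 by its other probe, and -0.34 to 0.29 on leaving out 1 array. C4b was 0.022 with arrays centred on their median, 0.088 and 0.0063 with normexp and the 75th percentile or quantile normalization, 0.78 with the slide as a block, 0.62 and 0.94 within the shared slide for high-fat replicates 2 and 3, and -0.41 to 0.38 on leaving out 1 array. C1qa was 0.50 with normexp and the 75th percentile, 0.75 with the slide as a block, 0.83 and 0.67 within the shared slide, and -0.52 to 0.058 on leaving out 1 array. C1qb was 1e-04 with quantile normalization, 0.0073 with arrays centred on their median, 0.41 with normexp and the 75th percentile, 0.19 with the slide as a block, 0.034 and 0.34 within the shared slide, and -0.21 to 0.15 on leaving out 1 array. Within the shared slide C2 was 0.0037, Serping1 0.38, Colec12 0.0038, Lrp1 0.0063 and Hc 0.20 for high-fat replicate 3, and Cfi was -0.27 for replicate 2.

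High-fat replicate 1 and control replicates 2 and 3 lay on slides that held 1 diet, so only the other 3 arrays inform the slide block. The values do not settle whether replicate numbers pair the mice. Deviations of same-numbered arrays correlated at 0.33, -0.14 and 0.25, and 4 of 6 arrays correlated best with their own number. Under the replicate block 0 genes passed, and the median of the members was -0.15. At an unadjusted limma p under 0.05 that block gave 4044 genes, against 3129 as reported. Leaving 2 arrays in a diet keeps limma's pooled spread. C1qa, Cfi, C1rb, C3ar1 and Itgax lay near the background, which limits their fold. The deposited table of values held 8 of the 9 members.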
